A study of Mus musculus with 6 samples.

Results

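The genes described here are 10 transcripts by which hepatic stellate cells are usually recognised: Lrat, Ngfr, Reln, Hgf, Pdgfra, Pdgfrb, Acta2, Tagln, Des and Rgs5. They were found by gene name among the non-control probes of the array design, which makes them 10 of 37074 gene names and 24 of 56605 probes. All 10 genes could be tested, through 16 of their 24 probes, and the other 8 probes were too dim. The arrays measured liver RNA of nude mice, an athymic strain without mature T cells, with 1 Agilent 1-colour array per liver. The sEV mice were given small extracellular vesicles of SW620 cells, a human line from a colorectal cancer, as 10 tail vein injections of 20 µg within 21 days. Control mice were given sterile phosphate-buffered saline in their place. There were 5 mice in each group, and 3 livers of each were arrayed. The labels give neither the age nor the sex of the mice, and all comparisons are of whole liver.

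Hepatic stellate cells lie between the hepatocytes and the sinusoidal endothelium. In healthy liver they store vitamin A as retinyl esters, and after injury they can turn into contractile, matrix-producing myofibroblasts. Lrat and Reln mark the cells in the healthy organ, Acta2 and Tagln belong to the contractile state, the platelet-derived growth factor receptors carry a proliferative signal, and Hgf is a growth factor that stellate cells supply to hepatocytes. Several of these genes are also expressed by vascular smooth muscle, pericytes and portal fibroblasts.

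Each array carried 62976 spots, and 49.9% to 53.3% of the non-control spots on sEV arrays were well above background, against 50.9% to 54.7% on Control arrays. Levels are given as log2 of the processed signal relative to the 75th percentile of the array, so that 0 stands for that percentile. The level of a gene is that of its brightest tested probe, and each of these 10 probes was well above background on all 6 arrays. The 6 arrays shared 1 slide, with sEV 1 and all Control arrays in its row 1 and sEV 2 and sEV 3 in its row 2. Slide row therefore moved with the groups, and values with row as a block, which rest on 1 sEV array, are given where they changed a call or a sign. All 12 hepatocyte markers were well above background on every array.

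Of the 10 genes, 3 were lower in sEV livers, 0 were higher and 7 did not pass an adjusted p of 0.05 in limma. The 3 were Lrat, which makes the retinyl esters that stellate cells store, Ngfr, the low-affinity neurotrophin receptor, and Hgf, hepatocyte growth factor. Across all 19446 tested genes, 17.0% passed in either direction, 9.08% as higher and 7.95% as lower. The median log2 fold change of the 10 genes was -0.09, against 0.03 for all genes. Contractile and filament genes and both growth factor receptors were among the 7. In whole liver, fewer stellate cells and less RNA per cell cannot be told apart. Between the groups, the levels of 3 of the 10 genes did not overlap, where 40.9% of all genes had groups apart.

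**Figure D1:**
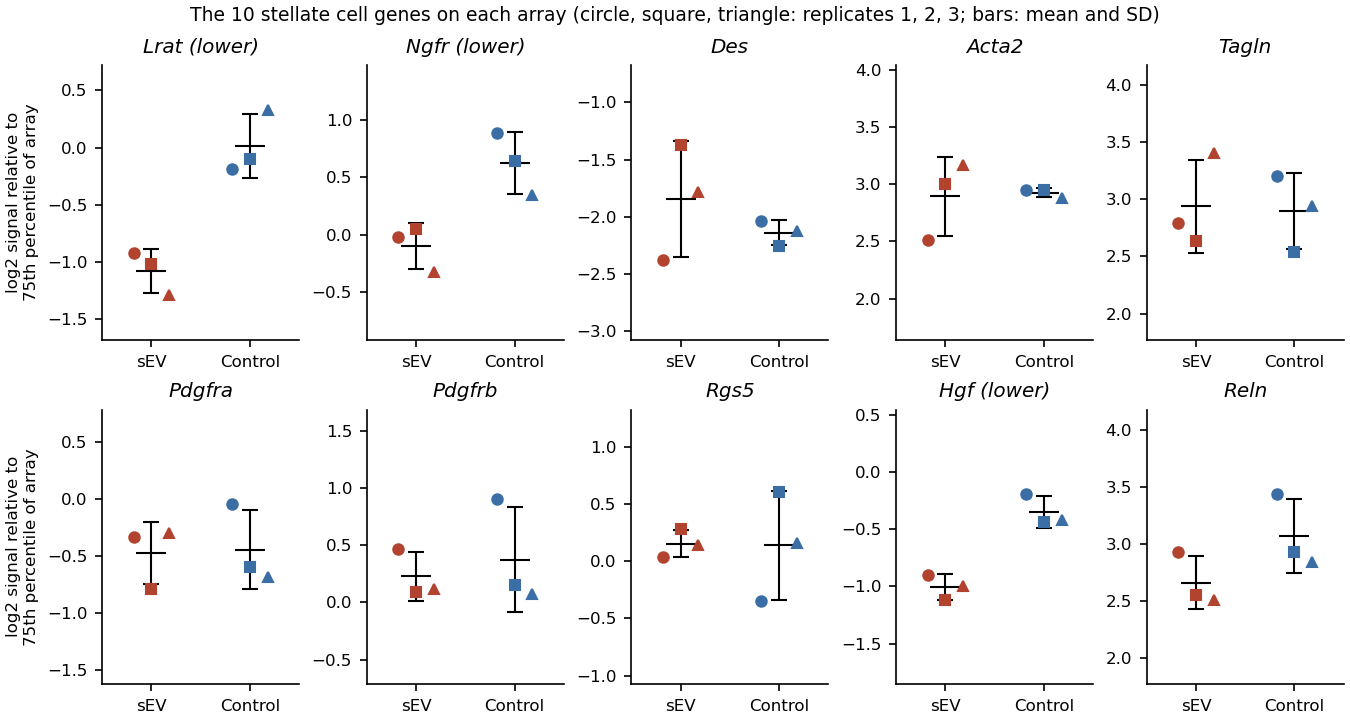
Level of each of the 10 genes on every array, as log2 signal relative to the array's 75th percentile, with sEV livers left of Control livers, replicates as circle, square and triangle, and bars for mean and SD (n = 3). The sEV points lie below all Control points for Lrat, Ngfr and Hgf and overlap them in the other 7 panels, each of which spans the same height.

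Lrat encodes lecithin retinol acyltransferase, the enzyme that esterifies retinol for storage. Its level was -0.92, -1.02 and -1.29 in the sEV livers, against -0.19, -0.10 and 0.33 in the Control livers. All sEV livers lay below all Control livers, and the lowest Control liver was Control 1. The log2 fold change was -1.09 ± 0.17 (SE, n = 3 per group, adjusted p = 0.012), which is 46.9% of the Control level with a 95% interval of 35.4% to 62.2%. Before scaling, the processed signals were 148, 132 and 113 on the sEV arrays and 298, 274 and 412 on the Control arrays. Lrat had 1 probe, and it passed as lower in all 6 fits that each left out 1 array, with adjusted p between 0.0217 and 0.0377. In the fit blocked by row the log2 fold change was -0.94 and its adjusted p 0.104.

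Ngfr encodes the p75 neurotrophin receptor, a surface protein of stellate cells and of nerve fibres. Its level was -0.02, 0.05 and -0.33 in the sEV livers, against 0.89, 0.64 and 0.35 in the Control livers. The groups did not overlap, and sEV 3 and Control 3 were each the lowest of their group. Ngfr stood at 60.4% of the Control level, with a 95% interval of 45.6% to 80.1%, and its log2 fold change was -0.73 ± 0.17 (SE, adjusted p = 0.0345). The call depended on which arrays were used. It ended without sEV 1 (adjusted p = 0.0598), sEV 2 (0.0623), sEV 3 (0.0889), Control 1 (0.0912) or Control 2 (0.0943), and held without Control 3 (0.0366). It also ended with array weights (-0.61, adjusted p = 0.0514), with no filter on dim probes (0.113) and in the fit blocked by row (-0.64, adjusted p = 0.213).

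The probes behind these calls are printed as they read on the array, 5′ to 3′, with the first 30 of their 60 bases, since 1 short stretch carries the whole measurement of Lrat and of Ngfr. In the mm9 coordinates of the scanner files, the Lrat probe covers chr3:82696805-82696864 on the minus strand and the Ngfr probe chr11:95430211-95430270 on the minus strand. No gene model of that build was used here, so exon and untranslated region are not stated.
Lrat probe: ggcgttgattactgcaaaataaattaactt
Ngfr probe: tccagctggcgactatgagatccagacctc

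The 250 bases before the annotated start of both genes were taken from RefSeq in the GRCm38.p6 build and searched for the GC box GGGCGG, on either strand, the element that Sp family factors bind. The Lrat window, chr3:82903975-82904224 on the minus strand, held 1 match and the Ngfr window, chr11:95587699-95587948 on the minus strand, held 4, shown in capitals. Among all 32851 windows of that length, 32.7% held the element.
Lrat promoter: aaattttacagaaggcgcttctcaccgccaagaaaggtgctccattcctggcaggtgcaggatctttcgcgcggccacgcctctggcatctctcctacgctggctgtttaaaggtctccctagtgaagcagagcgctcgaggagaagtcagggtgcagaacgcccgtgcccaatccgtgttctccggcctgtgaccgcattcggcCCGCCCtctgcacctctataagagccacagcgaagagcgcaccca
Ngfr promoter: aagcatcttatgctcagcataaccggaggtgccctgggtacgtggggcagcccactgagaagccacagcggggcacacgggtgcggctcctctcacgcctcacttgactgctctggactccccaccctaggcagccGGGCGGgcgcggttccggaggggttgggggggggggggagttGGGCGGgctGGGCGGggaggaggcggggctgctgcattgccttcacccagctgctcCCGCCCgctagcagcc
Of the other genes with a window, Reln had 6 matches and Des 2, while Hgf, Pdgfra, Rgs5 and Acta2 had 0. The CArG box that serum response factor binds was searched only in its strict form CCWWWWWWGG, where W is A or T. That form was found in 0 windows of the 8 genes searched and in 1.47% of all windows. Variants with a G or C in the core were not searched, so these genes may still hold such a box. Matches describe these letters only. The genes not searched were Tagln and Pdgfrb.

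Reln encodes reelin, a secreted glycoprotein that stellate cells release. Its brightest probe gave 2.93, 2.55 and 2.51 in the sEV livers, against 3.44, 2.93 and 2.84 in the Control livers. The groups overlapped through sEV 1, which was as high as Control 2, and Control 1 was the highest of all. The log2 fold change was -0.41 ± 0.19 (SE, adjusted p = 0.199), with a 95% interval of -0.88 to 0.06, and it shrank to -0.14 with slide row as a block. The 3 other tested Reln probes had log2 fold changes of -0.28, -0.25 and -0.10 and did not pass either. Of the 2 Reln probes that were not tested, 1 was well above background on 0 of 3 sEV arrays and 2 of 3 Control arrays, and the other on none.

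Hgf, the ligand of the Met receptor, was read by several probes, which did not all pass. The brightest, designed on transcript variant 4, gave -0.90, -1.12 and -1.0 in the sEV livers, against -0.19, -0.44 and -0.42 in the Control livers. The groups were apart, with Control 1 the highest array. The log2 fold change was -0.66 ± 0.11 (SE, adjusted p = 0.014), or 63.4% of the Control level with a 95% interval of 53.0% to 75.9%. It passed as lower in all 6 fits without 1 array, with adjusted p between 0.023 and 0.0448. The call ended in the fit blocked by row (-0.55, adjusted p = 0.117), with no filter on dim probes (0.0684), and when all tested Hgf probes were averaged (-0.47, adjusted p = 0.0542).

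The Hgf probes lie at different places of the gene, and the sequences show which stretch each of them read. The variant 4 probe covers chr5:16079193-16079252 on the plus strand of mm9. A probe of transcript variant 3 lies 45636 bases downstream, at chr5:16124829-16124888, and a probe of a cDNA clone lies 2113 bases upstream, at chr5:16077080-16077139.
Hgf variant 4 probe: ctcttgcacattgttttcagtgtgaaagag
Hgf variant 3 probe: agtgtgtttgaagcatccatggatacatga
Hgf cDNA clone probe: ctacttaatatatgattgggttcaaaagtt
The variant 3 probe gave -1.78, -1.91 and -1.83 in the sEV livers and -1.18, -1.36 and -1.91 in the Control livers. Its groups overlapped through Control 3, which was as low as the lowest sEV liver. Its log2 fold change was -0.36 ± 0.19 (SE, adjusted p = 0.252 over all tested probes), with a 95% interval of -0.82 to 0.10. The cDNA clone probe gave -0.98, -1.43 and -1.52 in the sEV livers and -0.75, -1.12 and -0.84 in the Control livers, where sEV 1 lay above Control 2. Its log2 fold change was -0.41 (adjusted p = 0.168), with a 95% interval of -0.83 to 0.01. All 3 tested probes thus had negative values, 1 of them passed, and the difference between probes was not tested. The remaining Hgf probe was well above background on 0 of 3 sEV arrays and 1 of 3 Control arrays and was not tested.

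**Figure D2:**
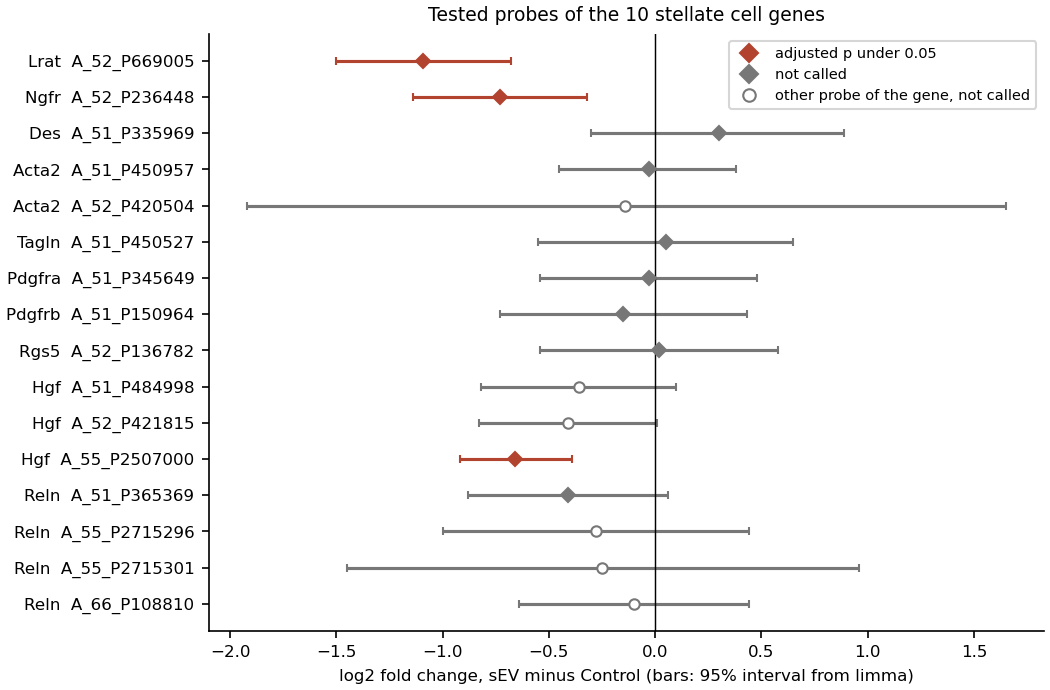
Log2 fold change (sEV minus Control) of the 16 tested probes, with 95% intervals from limma, where diamonds mark the probe that stands for its gene and open circles its other probes. Only the Lrat, Ngfr and Hgf variant 4 probes are coloured as passing, and the second Acta2 probe has the widest interval, -1.92 to 1.65.

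At the level of single probes, 3 of the 16 tested probes passed, all as lower, against 14.1% of 28760 probes in either direction and 6.50% as lower. Their adjusted p values over all probes were 0.0133 for Lrat, 0.0382 for Ngfr and 0.0162 for Hgf. Negative log2 fold changes were found for 13 of the 16 probes, which are not independent, since probes of 1 gene share their RNA. By gene, 7 of the 10 were negative, while 46.4% of all tested genes were. Among the 7, Acta2 and Pdgfra stood at only -0.03. Over the other settings the count of negative genes ran from 5 with array weights to 9 with median scaling. Of the 8 probes that were too dim, 5 were not well above background on any array, among them the second Des probe and both further Pdgfra probes.

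Pdgfra and Pdgfrb encode the receptors through which platelet-derived growth factors drive stellate cells and fibroblasts to divide. Pdgfra gave -0.33, -0.79 and -0.30 in the sEV livers, against -0.05, -0.60 and -0.68 in the Control livers. The groups were interleaved, and the log2 fold change was -0.03 ± 0.21 (SE, adjusted p = 0.941). The 95% interval was 69.0% to 140% of the Control level. Pdgfrb gave 0.47, 0.09 and 0.12 in the sEV livers, against 0.90, 0.15 and 0.07 in the Control livers. Replicate 1 was the highest of each group, and the log2 fold change was -0.15 ± 0.24 (SE, adjusted p = 0.695), with a 95% interval of 60.2% to 135%. Both changed sign with slide row as a block, to 0.11 and 0.09, and did not pass there.

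Acta2 encodes smooth muscle alpha actin, the usual marker of activated stellate cells. It gave 2.51, 3.0 and 3.17 in the sEV livers, against 2.95, 2.95 and 2.88 in the Control livers. The Control livers differed by little, while the sEV livers lay on both sides of them, with sEV 1 lowest and sEV 3 highest of all arrays. The log2 fold change was -0.03 ± 0.17 (SE, adjusted p = 0.914), with a 95% interval of 73.3% to 130% of the Control level. In the fit blocked by row it was -0.41 (adjusted p = 0.143). The probe spans 3255 bases of mm9, chr19:34322995-34326249 on the minus strand, with 60 bases of sequence, so it joins stretches that are apart in the genome.
Acta2 probe: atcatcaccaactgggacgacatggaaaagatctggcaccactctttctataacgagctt
The second tested Acta2 probe gave -0.02, -0.06 and 2.63 in the sEV livers and 0.91, 0.51 and 1.54 in the Control livers, so that sEV 3 was again highest. Its log2 fold change was -0.14 ± 0.74 (SE, adjusted p = 0.92). Another Acta2 probe was well above background on sEV 1 alone, where it read -2.52, against -5.89 and -5.70 on the other sEV arrays and -6.40, -5.99 and -6.48 on the Control arrays. It did not pass the filter and was not tested.

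Tagln encodes transgelin, an actin-binding protein of smooth muscle and myofibroblasts. It gave 2.79, 2.63 and 3.40 in the sEV livers, against 3.20, 2.54 and 2.94 in the Control livers. The groups overlapped, sEV 3 was the highest array as for Acta2, and the log2 fold change was 0.05 ± 0.25 (SE, adjusted p = 0.909). Its 95% interval was 68.0% to 158% of the Control level. Des encodes desmin, the intermediate filament of muscle and of rodent stellate cells, and gave -2.38, -1.37 and -1.78 in the sEV livers, against -2.04, -2.25 and -2.12 in the Control livers. Here sEV 1 was the lowest array and the other sEV livers lay above all Control livers. The log2 fold change was 0.30 ± 0.25 (SE, adjusted p = 0.442), with a 95% interval of 81.4% to 185%, and it turned to -0.24 with slide row as a block.

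Rgs5 encodes a regulator of G protein signalling that marks pericytes and also occurs in stellate cells. It gave 0.04, 0.28 and 0.14 in the sEV livers, against -0.35, 0.60 and 0.16 in the Control livers. The sEV livers lay within the range of the Control livers, with an SD of 0.12 in sEV and 0.47 in Control livers. The log2 fold change was 0.02 ± 0.23 (SE, adjusted p = 0.961), with a 95% interval of 68.5% to 150%. The 95% intervals of Acta2, Tagln, Des, Rgs5 and both receptors each took in levels below and above that of Control.

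**Figure D3:**
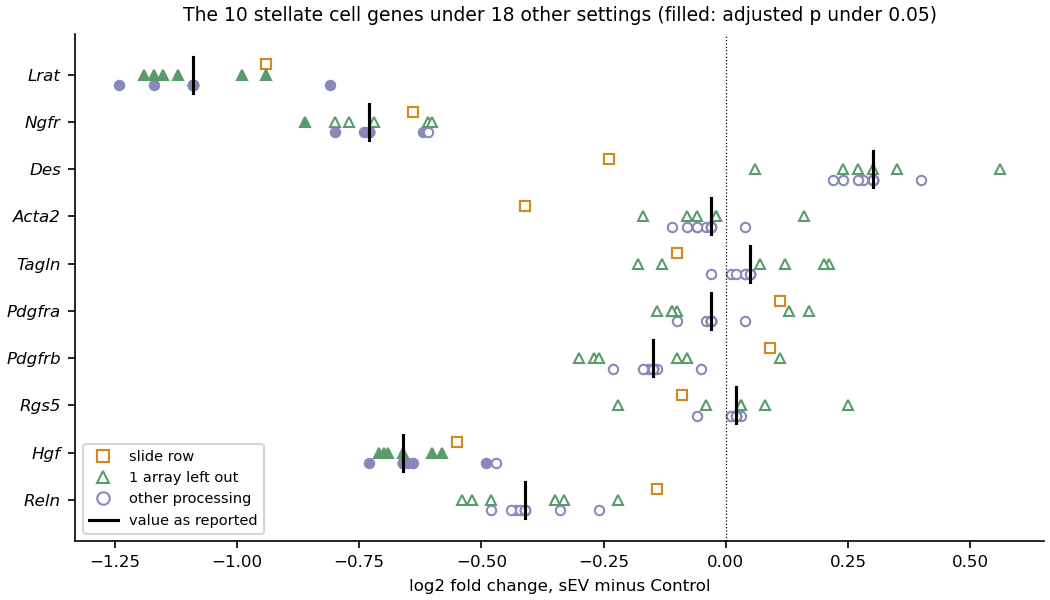
Log2 fold change (sEV minus Control) of each of the 10 genes as reported (black bars) and under 18 other settings, filled where the adjusted p was under 0.05. Lrat, Ngfr, Hgf and Reln stay below 0 throughout, while the slide row settings (squares) are open for all genes and lie on the other side of 0 for Des, Tagln, Pdgfra, Pdgfrb and Rgs5.

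Blocking by slide row left 0 calls among the 10 genes, against 3.68% of all genes. On the row 1 arrays alone, sEV 1 lay below each of the 3 Control livers for Lrat, Ngfr and Hgf. Those arrays leave 1 sEV liver, which is assumed to vary like the Control livers, and 0 of the 10 genes passed there, against 3.05% of all genes. The median of the 10 genes was -0.19 in the blocked fit. Control 1 was the highest of the 6 arrays for Ngfr, Reln, Hgf, Pdgfra and Pdgfrb and the lowest for Rgs5.

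The other stellate cell genes were described through lists. Of 17 further tested identity genes, 3 were lower, 0 were higher and 14 did not pass. The list median was -0.20. Nes, which encodes the intermediate filament nestin, had a log2 fold change of -1.14 ± 0.18 (SE, adjusted p = 0.0131), and alone of these 3 it passed with slide row as a block. Rspo3, an enhancer of Wnt signalling that supports zonation of the liver, fell by 0.52 ± 0.09 on the log2 scale, and Colec11, a secreted collectin, fell by 0.66 ± 0.17. Colec11 passed under 9 and Rspo3 under 11 of the 18 other settings. The list held 1 lower call without sEV 2, sEV 3, Control 1 or Control 2, and 0 with no filter on dim probes. Gfap, an astrocyte and stellate cell filament gene, was on the array and did not pass the filter.

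Of 16 tested retinoid genes, the pathway of Lrat, 3 were lower, 2 were higher and 11 did not pass. Blocking by slide row left 2 lower, Rarb and Lpl, and 0 higher. The list median was 0.14. Rarb, a retinoic acid receptor gene that is itself a target of retinoic acid, gave -0.08, 0.20 and 0.10 in the sEV livers, against 1.59, 1.25 and 1.59 in the Control livers. The groups were apart. It fell by 1.40 ± 0.13 on the log2 scale (adjusted p = 0.0029), and it passed under all 18 other settings. Lpl, lipoprotein lipase, which hydrolyses triglycerides and retinyl esters of lipoproteins, fell by 1.70 ± 0.19. The 2 higher genes, named after their values were seen, were Rbp4, the plasma retinol carrier that hepatocytes secrete (0.53 ± 0.12), and Dgat1, an acyltransferase of triglyceride synthesis (0.32 ± 0.08). Median scaling gave 0 higher and 3 lower genes on this list. There were 0 higher genes without any single array other than sEV 2, and 1 without sEV 2.

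**Figure D4:**
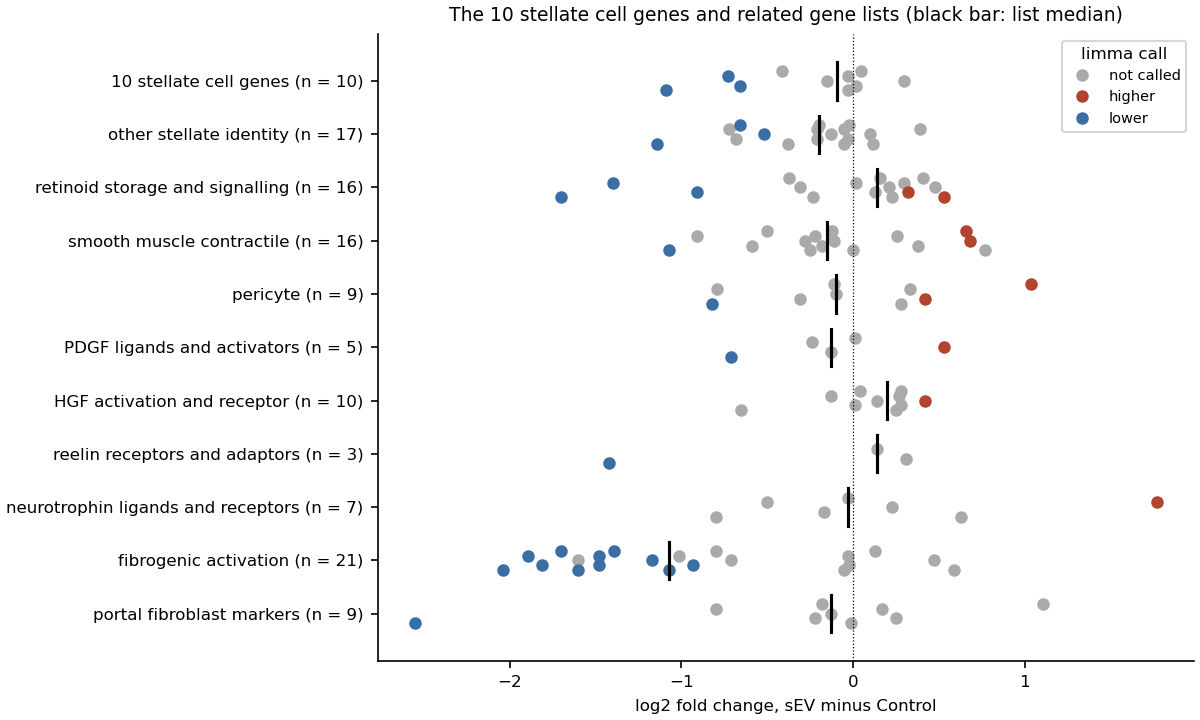
Log2 fold change (sEV minus Control) of every tested gene of the 10 stellate cell genes and of 10 related lists, coloured by limma call, with black bars for list medians. The fibrogenic list lies furthest to the left with a median of -1.07, and its genes Col5a2 and Lox and the portal fibroblast gene Eln are drawn at fitted values although no sEV array was well above background for them.

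Partners of the receptors and ligands were mostly among the genes that did not pass. Of 5 tested genes of platelet-derived growth factors and their activators, Pdgfa was lower, Pdgfb was higher and 3 did not pass. Pdgfa, a ligand of Pdgfra, gave 1.56, 1.42 and 1.51 in the sEV livers, against 2.29, 2.03 and 2.30 in the Control livers, a log2 fold change of -0.71 ± 0.10. Pdgfb, a ligand of both receptors, gave -1.04, -1.16 and -1.07 in the sEV livers, against -1.57, -1.56 and -1.72 in the Control livers, at 0.53 ± 0.09. The 2 ligands thus had groups apart in opposite directions, and neither passed in the fit blocked by row (adjusted p = 0.0909 for Pdgfa and 0.0776 for Pdgfb). Of 10 tested genes of Hgf activation and reception, Plg, the plasminogen gene, was higher (0.42 ± 0.11, adjusted p = 0.045) and 9 did not pass, among them Met, the receptor (0.01 ± 0.09). Of 3 tested reelin receptors and adaptors, Vldlr, a reelin receptor, was lower at -1.42 ± 0.30. Of 7 neurotrophin ligands and receptors, Ntf3, a ligand of the neurotrophin receptors, was higher at 1.77 ± 0.32, and 6 did not pass. The calls of Plg, Vldlr and Ntf3 ended with slide row as a block. Over 18 settings, Plg passed under 7, Vldlr under 10 and Ntf3 under 11.

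Among 16 tested genes of the smooth muscle contractile programme, which holds the partners of Acta2 and Tagln, 2 were higher, 1 was lower and 13 did not pass. The list median was -0.15. Smtn, smoothelin of contractile smooth muscle, fell by 1.07 ± 0.13 on the log2 scale. Mkl1 and Mkl2, coactivators of serum response factor, were higher at 0.68 ± 0.11 and 0.66 ± 0.12. Of 9 tested pericyte genes, which Rgs5 is usually listed with, Mcam, a cell adhesion molecule, was higher at 1.04 ± 0.22 and Notch3, a receptor of mural cells, was higher at 0.42 ± 0.10. Kcnj8, a subunit of a potassium channel of pericytes, fell by 0.82 ± 0.10. With slide row as a block, Smtn, Mkl2 and Kcnj8 passed, and Mkl1, Mcam and Notch3 did not. Without Control 1 or Control 2, 0 contractile genes passed as higher. The 2 higher pericyte calls became 1 without Control 1 or Control 3, and 0 without sEV 1, sEV 2, sEV 3 or Control 2. Mcam passed under 11 and Notch3 under 7 of the 18 other settings. Of 6 tested relatives of Rgs5 in the R4 family, 0 passed in the fit reported here, and 2 passed as higher under normexp background correction. Rgs3 had the largest moderated t (0.76 ± 0.22, adjusted p = 0.0611) and passed as higher under 5 of the 18 other settings.

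Genes of the fibrogenic state, the matrix output of activated stellate cells and other fibroblasts, had a median of -1.07 over 21 tested genes, of which 11 were lower, 0 were higher and 10 did not pass. Sparc, a collagen-binding glycoprotein, fell by 1.60 ± 0.13 on the log2 scale, Postn, periostin, fell by 1.48 ± 0.16 and Col3a1, a fibrillar collagen, fell by 1.89 ± 0.28. Timp1 (0.59 ± 0.19), Thbs1 (0.47 ± 0.19) and Fn1 (0.13 ± 0.11) had positive values and did not pass. Negative values were found for 18 of the 21 genes, among them Ctgf (-0.05 ± 0.27) and Tgfb1 (-0.02 ± 0.14), which did not pass. Of the 11, Col5a2 was well above background on 0 of 3 sEV arrays, with a bound of only 1.05-fold, and Thbs2 on 1 of 3. With genes that were dim on all sEV arrays set at their bound, the median was -0.93. Where probes had to be well above background on all 6 arrays, 9 of 17 tested genes were lower and 0 were higher. Under normexp background correction it was -0.39, with 9 lower and 1 higher. With slide row as a block the median was -1.11 and 2 genes passed, Sparc and Postn, and without sEV 2 there were 7 lower genes. The study reports matrix remodelling from these same arrays, so the count is not independent evidence of its direction.

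Markers of the other liver cells were measured on the same arrays, and their part in the results was not tested. Of 9 tested portal fibroblast markers, 1 was lower, 0 were higher and 8 did not pass. Their summed signal, in units of the array's 75th percentile, was 5.51 to 7.08 on sEV arrays and 6.07 to 7.09 on Control arrays. Eln, the elastin gene, was well above background on 0 of 3 sEV arrays, and its bound was 4.43-fold lower as the data were scaled here. The limma adjusted p of 0.00704 belongs to the fitted log2 fold change of -2.55, which uses the dim sEV signals, and not to the bound. Over the other settings its log2 fold change ranged from -3.23 to -0.95. Mesothelial markers had 0 of 5 called, and their sum was 0.826 to 2.98 on sEV arrays and 0.665 to 3.30 on Control arrays. Upk3b stood at 0.75 ± 0.99 and changed sign with slide row as a block, to -0.12. For the 10 stellate cell genes themselves, the sum was 25.2 to 30.3 on sEV arrays and 27.9 to 35.2 on Control arrays. Most of that sum came from the brightest genes, Acta2, Tagln and Reln, none of which passed.

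Hepatocyte markers had 6 of 12 higher and 0 lower, with a sum of 5690 to 6200 on sEV arrays and 4370 to 4740 on Control arrays. The aminotransferase gene Tat was higher at 1.2 ± 0.12 and the urea cycle gene Cps1 at 0.85 ± 0.09. Alb (0.15 ± 0.14), Ttr (0.16 ± 0.12) and Apob (0.29 ± 0.12) did not pass. Neither did Apoa1 (-0.23 ± 0.1), the 1 hepatocyte marker with a negative value. Kupffer cell markers had 6 of 10 higher and 0 lower, with sums of 159 to 177 on sEV arrays and 104 to 142 on Control arrays, and the complement genes C1qa and C1qc stood at 0.74 ± 0.13 and 0.76 ± 0.13. Neutrophil markers had 6 of 12 higher and 0 lower, with sums of 223 to 240 on sEV arrays and 153 to 187 on Control arrays. The granule protease genes Ctsg and Elane stood at 2.09 ± 0.25 and 1.32 ± 0.16. The 6 that did not pass included Ly6g (-0.07 ± 0.16) and Csf3r (-0.89 ± 0.75), the 2 with negative values. Cxcr2 (0.84 ± 0.49) and Retnlg (0.58 ± 0.49) did not pass either. With slide row as a block, 5 hepatocyte, 0 Kupffer cell and 0 neutrophil markers passed. Without 1 array the higher calls were 5 to 6 for hepatocyte, 0 to 8 for Kupffer cell and 2 to 5 for neutrophil markers. The study's own text names inflammation among what these arrays showed. Sinusoidal endothelial markers had 1 of 10 lower, Stab1 (-0.53 ± 0.13), and sums of 61.1 to 76.7 on sEV arrays and 64.6 to 93.8 on Control arrays. Vascular endothelial markers had 0 of 7 called, Emcn having the largest moderated t (-0.47 ± 0.16), and sums of 6.80 to 8.52 on sEV arrays and 7.21 to 8.08 on Control arrays. Cholangiocyte markers had sums of 1.77 to 2.29 on sEV arrays and 1.99 to 2.28 on Control arrays. Erythroid markers had 5 of 10 lower and 1 higher, with Ahsp at -3.59 ± 0.34 and Slc4a1 at -1.79 ± 0.32, and sums of 705 to 1420 on sEV arrays and 1030 to 1220 on Control arrays. Ahsp was well above background on 1 of 3 sEV arrays, and its log2 fold change ranged from -4.02 to -1.94 over the other settings. Blocking by slide row left 1 erythroid marker lower, Ahsp, and 0 higher, and ended the calls of Slc4a1 (adjusted p = 0.114) and Stab1 (adjusted p = 0.0791). Over the 18 other settings, Stab1 passed under 9, and without 1 array 1 to 4 erythroid markers were lower.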

How the data were processed

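Liver RNA of 3 sEV and 3 Control mice was labelled with Cy3 for 1 array each, per the labels' protocols. Per the submitters' processing notes, the software was Agilent Feature Extraction 10.7.1.1. The scanner files hold processed intensity, which per the file headers is background-subtracted and not scaled between arrays. The deposited value table holds log2 values and served as an alternative; each column had a median of 4.5 and correlated with its array at r of at least 0.9995. From the intensities, controls and outlier-flagged spots, of which each array had 91 to 171, were left out. The log2 value of each spot was taken relative to its array's 75th percentile over probes. These values were then averaged over the spots of a probe. Probes were kept where at least 3 of 6 arrays read them well above background, and the brightest stood for its gene. The group test was that of limma 3.58.1, run in R 4.3.3 without covariates (lmFit, then eBayes). P values were adjusted by Benjamini-Hochberg over 19446 genes, or 28760 probes, at a threshold of 0.05. An exact test of 3 against 3 livers cannot go below p = 0.1. A gene that no sEV array read well above background has a bound for its fold. The bound sets the Control mean against a mean over sEV arrays in which the probe's signal is raised, where lower, to the dimmest well-measured signal of that array. The number of arrays limits precision. The limma p-values set each group difference against the spread between these livers, moderated by the spread of all genes.

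The 10 genes and the lists were chosen with earlier results of these data known. Named genes were the 10, up to 3 of each related list and up to 2 of each marker list by moderated t of those that passed, or the 1 with the largest moderated t where none did. Deviations of arrays with the same replicate number correlated at 0.02, 0.16 and 0.02, so they did not count as pairs. Some genes that this rule names are not reported here. Alternatives changed background correction, scaling, filter, probes per gene, variance model, array weights, source table, slide row and replicate block, and left out each array. Of 14 probes of the 10 genes with a RefSeq accession, 14 matched the same symbol. Plots used matplotlib 3.10.9 (Python 3.11.15).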

Additional observations from a re-analysis of the deposited data

How the results depend on the processing

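Lrat kept its call under 16 of 18 alternatives, Hgf under 14 and Ngfr under 9, all with negative values. The 3 genes lower became 1 with no filter on dim probes and 0 both with slide row as a block and on row 1 of the slide only, and the 3 probes called became 0, 0 and 0. Of all genes, 3312 passed, against 810 with no filter, 715 with the slide row block and 594 on row 1. Leaving out 1 array gave 1348 to 2767 genes, 2 to 3 of the 10 genes and 1 to 4 of their probes. Values changed sign under median scaling for Tagln (-0.03) and Rgs5 (-0.06), and with array weights for Acta2 (0.04) and Pdgfra (0.04). They also did so with slide row as a block and on row 1 only, at the same values, for Des (-0.24), Tagln (-0.10), Pdgfra (0.11), Pdgfrb (0.09) and Rgs5 (-0.09). Without 1 array the values ran from -0.17 to 0.16 for Acta2, -0.18 to 0.21 for Tagln, -0.14 to 0.17 for Pdgfra, -0.30 to 0.11 for Pdgfrb and -0.22 to 0.25 for Rgs5. The cause was not tested. Under median scaling 36.9% of called genes were higher, against 53.3%, and with no filter the median of all genes was 0.20. With the replicate number as a block, 2210 genes, 3 of the 10 genes and 3 probes passed, with adjusted p of 0.0434 for Lrat, 0.0296 for Ngfr and 0.0261 for Hgf, and no call among the 10 changed. Signal over background limits the 8 untested probes.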
